A study of Mus musculus with 12 samples.

Results

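The 10 genes F2, F5, F7, F9, F10, F11, F12, Klkb1, Proc and Serpinc1 encode plasma proteins of blood clotting, and they were followed through whole mouse liver. They were chosen by gene symbol, through the accession of each array probe, and 12 probes matched them, among 14633 genes with a symbol that were measured. F9 and Serpinc1 had 2 probes each and the other 8 members 1 probe each. All 12 probes were well above background in the sample channel on all 12 arrays, and no reading was saturated. Each gene is described by its brightest probe, and the second probe of F9 and of Serpinc1 is given where it was measured.

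Whole liver came from C57BL/6 mice carrying MycF/F, that is floxed alleles of the transcription factor gene Myc, with or without ERT2-Cre, a Cre recombinase that needs an estrogen receptor ligand to enter the nucleus. The mice ate a diet with 0.1% Wy-14643, an agonist of the nuclear receptor PPARα, or a control diet for 2 days. The groups were MycF/F,ERT2-Cre on Wy-14643 (4 arrays), MycF/F,ERT2-Cre on control diet (4 arrays), MycF/F on Wy-14643 (3 arrays) and MycF/F on control diet (1 array, whose RNA is labelled as pooled). The labels call MycF/F,ERT2-Cre "ko" and MycF/F "wt". They do not give ERT2-Cre's promoter, tamoxifen treatment, sex or animal identity. The p-values therefore measure the spread between these samples, which may be technical. Cy5 carried the RNA of the sample and Cy3 that of a pooled liver reference, and all levels here are log2 ratios of Cy5 to Cy3.

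Clotting factors circulate as inactive proteases and cofactors that activate each other in turn. The contact factors F12, Klkb1 and F11 start the intrinsic route, F7 with tissue factor starts the extrinsic route, and both lead through F10 and its cofactor F5 to thrombin, the active form of F2, which cuts fibrinogen. Proc, once activated, cuts active F5 and F8, and Serpinc1 (antithrombin) blocks thrombin and active F10. Hepatocytes make most of these proteins. F2, F7, F9, F10 and Proc are normally carboxylated in a vitamin K-dependent step before they are secreted. Many of their genes are known to depend on the hepatocyte factors HNF4A and C/EBPα.

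The stretches around the transcription starts are shown because 5 of these genes carry the same short set of letters close to the start. RefSeq promoter sequences on GRCm38.p6, from 250 bases before to 50 bases after the start, were at hand for 9 of the 10 genes, with no entry for Proc. The letters AGGTCA, a half-site that many nuclear receptors bind, were searched on both strands. They were found in 5 of these 9 promoters, F2, F5, F7, F9 and F10, against 16.3% of all 32851 promoters of the same length. In 4 of them they lay on the reverse strand, so that the gene's own strand reads TGACCT, at -34 to -29 from the start in F7, -30 to -25 in F10, -33 to -28 in F2 and -57 to -52 in F5. Between bases -60 and -20, an interval chosen after these positions were seen, 1.13% of all promoters hold TGACCT on the gene's strand. F9 carries AGGTCA on its own strand at -5 to 1, with 1 the first transcribed base. The 80 bases from -70 to 10 are printed 5′ to 3′ on the gene's strand, with the half-site in capitals, for these 5 genes and for F11, which has none in the window and fell the most on the drug.
F7, chr8:13025964-13026043, plus strand: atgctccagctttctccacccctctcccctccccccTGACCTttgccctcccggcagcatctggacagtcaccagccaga
F10, chr8:13037238-13037317, plus strand: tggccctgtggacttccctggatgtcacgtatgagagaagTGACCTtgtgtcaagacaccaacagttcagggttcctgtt
F2, chr2:91636448-91636527, minus strand: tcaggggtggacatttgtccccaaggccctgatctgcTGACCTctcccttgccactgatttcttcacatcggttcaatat
F5, chr1:164151765-164151844, plus strand: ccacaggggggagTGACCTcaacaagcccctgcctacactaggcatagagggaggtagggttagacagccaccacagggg
F9, chrX:59999394-59999473, plus strand: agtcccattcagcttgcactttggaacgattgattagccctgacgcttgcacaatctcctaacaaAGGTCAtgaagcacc
F11, chr8:45262022-45262101, minus strand: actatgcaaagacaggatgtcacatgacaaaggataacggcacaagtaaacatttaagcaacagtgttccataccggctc

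An E-box CACGTG, the core site of MYC with MAX, was in none of the 9 against 7.15% of all promoters. The HNF4 core CAAAGTC was in none against 4.44%. The direct repeat AGGTCANAGGTCA, the pattern that PPARα binds with RXR and which contains the half-site, was in none against 0.0396%. These were searched on both strands, and a missing match says only that these letters are not in this window.

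Readings that the scanner software marked as outliers were left out, which took 31 of the 144 member readings. Slide 1 held 21 of its 48 readings among them, and slides 2 and 3 held 5 of 48 each. Slide 1 carried 1 MycF/F,ERT2-Cre Wy-14643 array, 2 MycF/F,ERT2-Cre control arrays and 1 MycF/F Wy-14643 array. F9's brightest probe lost 9 of 12 readings, F5 lost 6, F2 and Klkb1 lost 4 each, and F10 lost 1. F7, F11, F12, Proc and the brightest probe of Serpinc1 kept all 12. The median sample signal over background ran from 2.64 to 4.82 across the arrays. The drug's known targets responded in MycF/F,ERT2-Cre livers, with Cyp4a14, an omega-hydroxylase of fatty acids, higher by 4.72 (SE 0.33) on the log2 scale. Myc itself, on the probe with 10 spots, read -1.85 (SE 0.17, limma adjusted p = 0.00386) in MycF/F,ERT2-Cre relative to MycF/F livers fed Wy-14643. The brightest of its 3 probes read -0.57 (SE 0.16, adjusted p = 0.27), and no probe was placed on the gene, so the deletion itself was not measured.

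**Figure D1:**
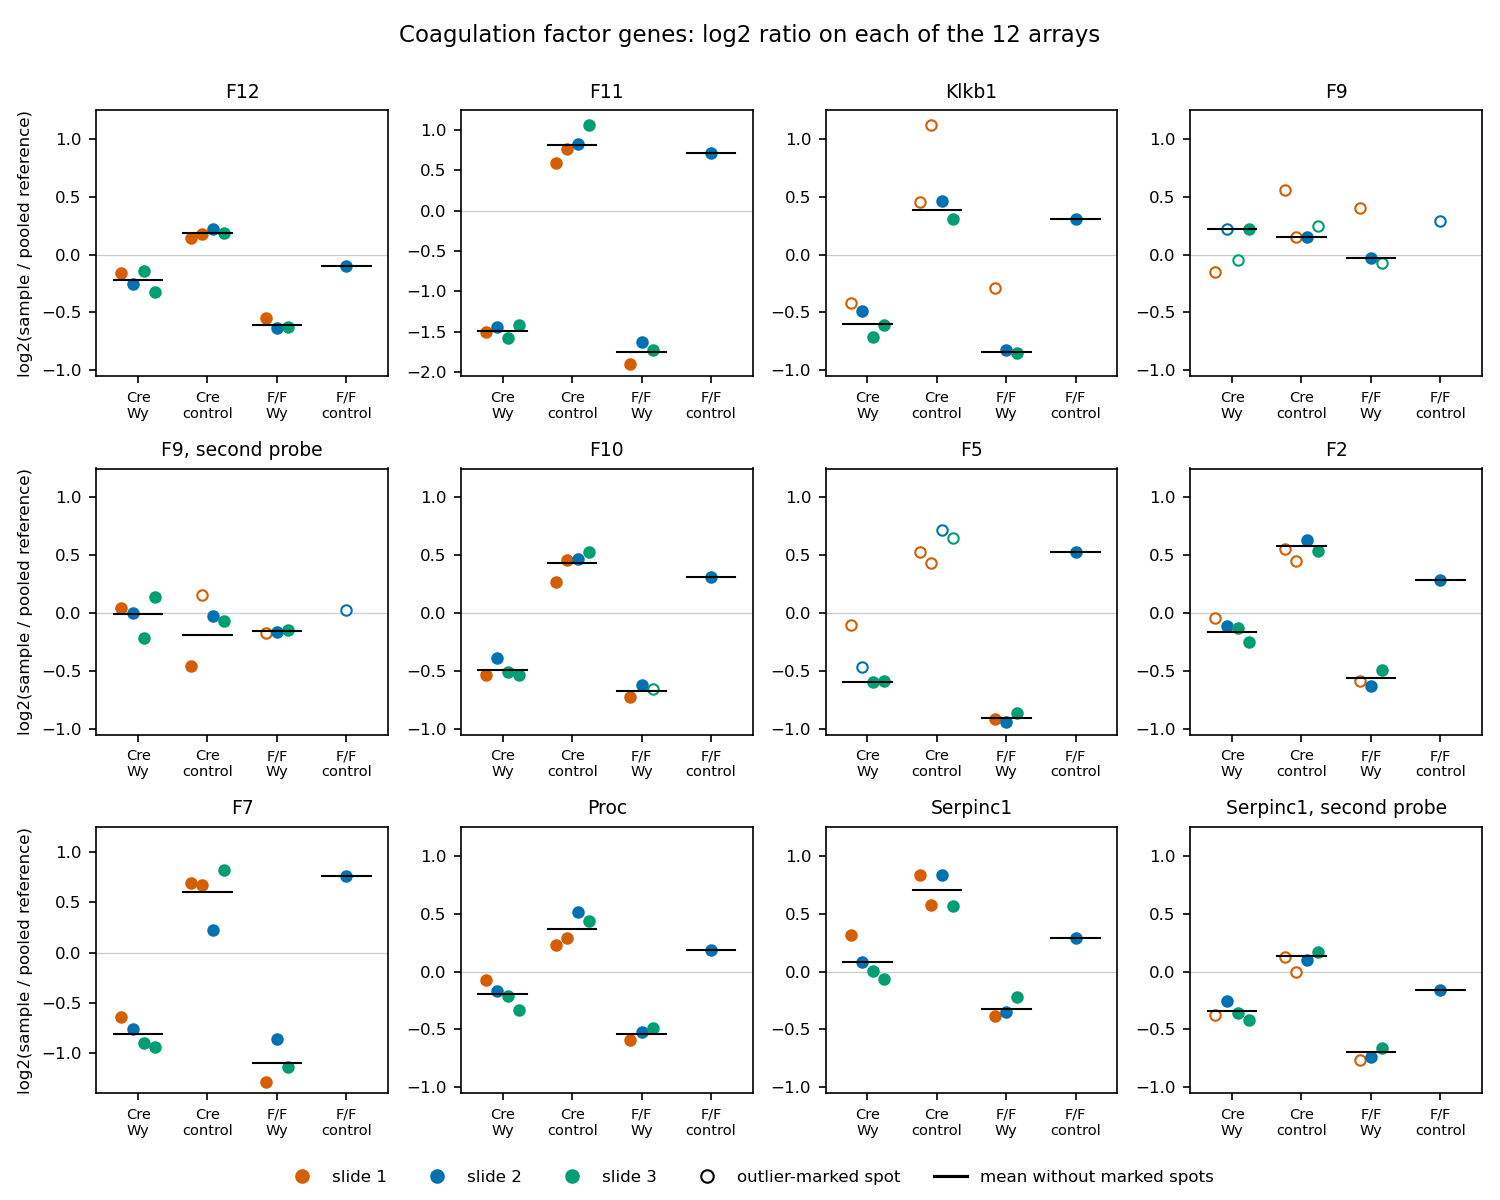
Log2 ratio of the sample to the pooled reference (vertical axes, with a longer axis for F11 and F7) on each array for the 12 probes, by group: MycF/F,ERT2-Cre (Cre) on Wy-14643 (Wy) and on control diet, then MycF/F (F/F) on Wy-14643 and on control diet. Colours mark the slide, open circles readings marked as outliers, and bars the group mean without them. For F11 the 4 MycF/F,ERT2-Cre Wy-14643 arrays sit between -1.58 and -1.42 and the 4 control arrays between 0.59 and 1.06.

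On Wy-14643, 8 of the 9 members that could be tested were lower than on control diet in MycF/F,ERT2-Cre livers. F11 fell the most, 4.93-fold, followed by F7 at 2.66-fold, and F12 fell the least of the 8, at 1.32-fold. Genes of the contact, extrinsic and common routes and of both anticoagulant proteins were among them. F9 did not pass the test, and F5 had no control reading free of an outlier mark. In shares of all genes, unnamed probes count as genes here and below, so that 25270 were measured, of which 14633 have a symbol. Over the 25162 tested, 7.26% were called lower and 9.12% higher at a limma adjusted p under 0.05, 16.4% in either direction. For 8 of the 9 members tested, all drug arrays lay below all control arrays, against 9.88% of all genes. These were the 8 called, of which F2 and Klkb1 had 3 drug and 2 control readings. The median log2 fold change was -0.75 over the 9 members and 0.03 over all genes.

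Among the contact factors, F11, the zymogen that activates F9, read -1.50, -1.45, -1.58 and -1.42 in the 4 MycF/F,ERT2-Cre livers fed Wy-14643. It read 0.59, 0.77, 0.83 and 1.06 in the 4 on control diet. The groups did not overlap, and the gap between them was larger than the spread within either. The drug effect was -2.30 (SE 0.10, adjusted p = 7.00e-08), rank 32 of 25162 genes ordered from the lowest. F11 was also the dimmest member, with a sample signal down to 4.06 times background on 1 array, and its drug effect was -2.94 with the deposited log ratio and -3.19 with Cy5 alone.

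F12, the contact factor that activates F11 and prekallikrein, read -0.16, -0.25, -0.14 and -0.32 in MycF/F,ERT2-Cre livers fed Wy-14643. Its control-diet values were 0.14, 0.18, 0.22 and 0.19. The groups did not overlap, with a small difference of -0.40 (SE 0.07, adjusted p = 0.00143), which was -0.08 (adjusted p = 0.853) with Cy5 alone. Klkb1, which encodes prekallikrein, read -0.49, -0.71 and -0.61 in 3 Wy-14643 arrays and 0.46 and 0.31 in 2 control arrays. Both control readings lay above all 3 drug readings, and the difference was -0.99 (SE 0.11, adjusted p = 0.000536).

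F7, the protease that pairs with tissue factor, read -0.64, -0.76, -0.90 and -0.94 in MycF/F,ERT2-Cre livers fed Wy-14643. On control diet it read 0.70, 0.67, 0.22 and 0.82. The control array of slide 2 lay below the other 3 but still above every drug array. The difference was -1.41 (SE 0.13, adjusted p = 1.81e-05).

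For the common route, F10, the protease that makes thrombin, read -0.54, -0.39, -0.51 and -0.54 on Wy-14643 and 0.26, 0.46, 0.47 and 0.53 on control diet in MycF/F,ERT2-Cre livers. Its groups were apart by -0.92 (SE 0.08, adjusted p = 1.64e-05). F2, prothrombin, read -0.11, -0.13 and -0.25 in 3 Wy-14643 arrays and 0.63 and 0.54 in 2 control arrays. These groups did not overlap either, and the difference was -0.75 (SE 0.11, adjusted p = 0.00178), which became -0.52 (adjusted p = 0.0695) with the deposited log ratio.

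F5, the cofactor of F10, had all 4 control readings and 2 of 4 drug readings of MycF/F,ERT2-Cre livers marked as outliers. With marked readings kept, it read -0.10, -0.46, -0.60 and -0.59 on Wy-14643 and 0.53, 0.44, 0.72 and 0.65 on control diet. The 4 drug arrays then lay below all 4 control arrays, by -1.02 (SE 0.11, adjusted p = 4.95e-05 in a fit across all probes, added after seeing the data).

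F9, the vitamin K-dependent protease encoded on the X chromosome, did not pass the test on either probe. Its brightest probe kept 1 drug reading of 0.22 and 1 control reading of 0.15 in MycF/F,ERT2-Cre livers, a difference of 0.07 (SE 0.20, adjusted p = 0.868) with a 95% interval from -0.48 to 0.62. Its second probe read 0.05, -0.00, -0.22 and 0.14 on Wy-14643 and -0.46, -0.03 and -0.07 on control diet, a difference of 0.18 (SE 0.12, adjusted p = 0.392). The groups overlapped on that probe. With marked readings kept, the brightest probe differed by -0.22 (SE 0.14, adjusted p = 0.337) and the second by 0.09 (SE 0.12, adjusted p = 0.691), so the probes differed in sign.

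The 2 genes of anticoagulant proteins, Proc and Serpinc1, fell less than F11 or F7 but more than F12, which differed by -0.40. Proc, protein C, read -0.07, -0.17, -0.21 and -0.33 in MycF/F,ERT2-Cre livers fed Wy-14643 and 0.23, 0.29, 0.52 and 0.44 on control diet. The groups did not overlap, at a difference of -0.57 (SE 0.09, adjusted p = 0.000632), which was -0.37 (adjusted p = 0.316) with Cy5 alone and -0.33 within slide 1. Serpinc1 read 0.32, 0.09, 0.00 and -0.07 on Wy-14643 and 0.83, 0.58, 0.84 and 0.57 on control diet, a difference of -0.62 (SE 0.10, adjusted p = 0.0012), which was -0.38 within slide 1. Its highest drug array, of slide 1, stayed below the lowest control array. The second Serpinc1 probe differed by -0.48 (SE 0.10, adjusted p = 0.0141) over 3 and 2 arrays.

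Within slides, where drug and control arrays of MycF/F,ERT2-Cre livers were scanned together, every member that could be measured was lower on the drug. F5 and F9 had no slide with a reading on both diets. That was 6 of 6 members on slide 1, 8 of 8 on slide 2 and 8 of 8 on slide 3, with medians of -0.64, -0.80 and -0.85. The share of all genes lower within a slide was not computed. The arrays are those of the comparison above, so these counts are not a separate test. From the Cy5 channel alone, without the common reference, 2 of 9 members passed, F11 and F7, while the number of genes called in either direction fell to 904, against 4121 with the reference.

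Members form 2 pairs of neighbours on chromosome 8 with no annotated gene between them, F11 with Klkb1 and F7 with F10, and within each pair the drug effects were compared. The drug effect on F11 minus that on Klkb1 was -1.45 (3 drug and 2 control arrays, two-sided exact permutation p = 0.1, the smallest that design allows). With marked readings kept the difference was -1.16 (4 and 4 arrays, exact p = 0.0286, the smallest possible, and 0.0571 adjusted over the 2 pairs). For F7 minus F10 it was -0.49 (4 and 4 arrays, exact p = 0.0571, 0.1 adjusted). For F11 minus Klkb1 the values did not overlap without the marked readings, at -0.96 to -0.82 on Wy-14643 and 0.37 to 0.76 on control diet.

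In MycF/F livers, 8 of the 9 members with a value in both diets were lower on Wy-14643, in 3 arrays against the lone control array, against 3.25% of 24910 genes called lower and 6.54% called in either direction. The lone control array lay above all drug arrays for all 9, as it did for 32.2% of all genes. The fit assumes that this control array varies like those of the other groups. F5 could be tested here and read -0.92, -0.94 and -0.87 on Wy-14643, against 0.53 on control diet. All 3 drug arrays lay far below the control array, and the difference was -1.44 (SE 0.13, adjusted p = 0.000808). F11 read -1.90, -1.63 and -1.73 on Wy-14643 and 0.72 on control diet, a difference of -2.48 (SE 0.17, adjusted p = 1.16e-05). F7 differed by -1.86 (SE 0.22), Klkb1 by -1.15 (SE 0.15), F10 by -0.99 (SE 0.14), F2 by -0.85 (SE 0.14), Proc by -0.73 (SE 0.14) and F12 by -0.51 (SE 0.11), with adjusted p from 0.000294 to 0.0161. Serpinc1 was the member that did not pass, at -0.61 (SE 0.17, adjusted p = 0.05001), and it passed in 3 of 15 settings, with an adjusted p from 0.0296 to 0.999. F9 had no control reading free of an outlier mark.

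On slide 2, which held both diets of MycF/F livers, all 9 members were lower on the drug, with a median of -0.94. The share of all genes lower on that slide was not computed. F12's call in MycF/F livers was lost in 5 of 15 settings, with an adjusted p from 0.00693 to 0.999. F2's was lost in 3 of 14 settings, among them without replicate 2 of MycF/F on Wy-14643 (-0.78, adjusted p = 0.0513), and Klkb1's with marked readings kept (-0.96, adjusted p = 0.0747).

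**Figure D2:**
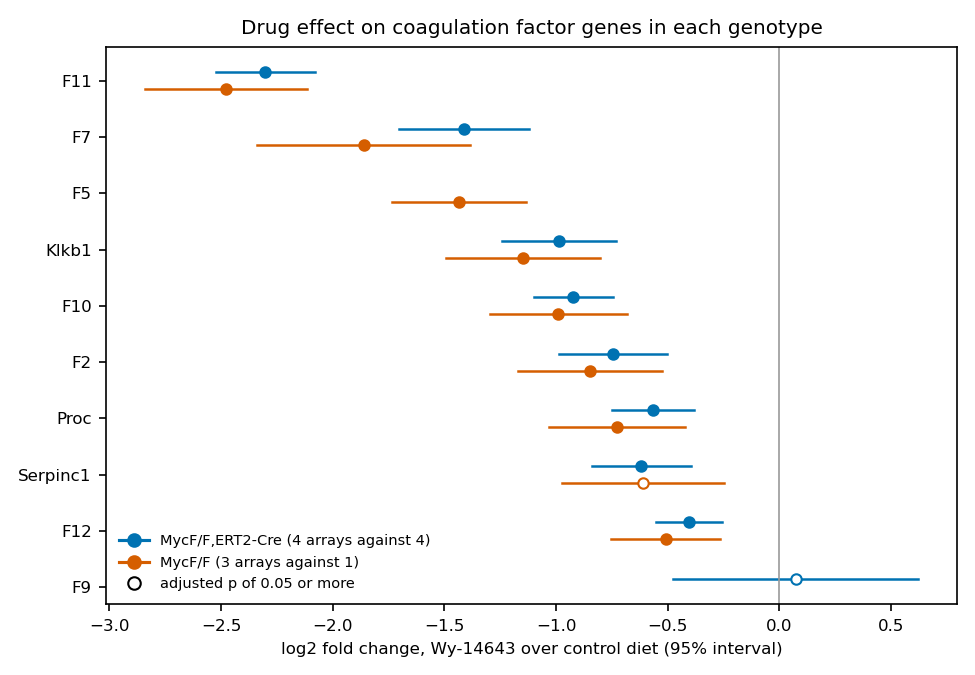
Log2 fold change of Wy-14643 over control diet with its 95% interval for each member, in MycF/F,ERT2-Cre livers (blue, 4 arrays against 4) and MycF/F livers (orange, 3 against 1), with open circles where the adjusted p is 0.05 or more. The order of the members is much the same in both genotypes, with F11 at -2.30 and -2.48 and F12 at -0.40 and -0.51, and F5 and F9 each lack a value in 1 genotype.

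The difference between the drug effects of the 2 genotypes was tested for 8 members, and none passed, as for all 24873 genes tested (0% called, with 541 genes or 2.18% at an unadjusted p under 0.05, no member among them). The estimates ran from -0.01 for Serpinc1 to 0.45 for F7. For F11 the difference was 0.18 with a 95% interval from -0.25 to 0.60, and for F7 it was 0.45 with an interval from -0.11 to 1.01.

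On Wy-14643, all 10 members read higher in MycF/F,ERT2-Cre than in MycF/F livers, by 0.18 to 0.41 on the log2 scale, and none passed the test after adjustment. Over all 25166 genes, 0.103% were called and 0.0199% were called higher, and 56.7% had an estimate above 0. The median was 0.30 over the members and 0.02 over all genes. At an unadjusted p under 0.05, 6 of the 10 members were higher, against 3.75% of all genes. The members' values move together across arrays, so these are not 10 separate observations. With marked readings kept, F9 read -0.04 on its brightest probe (SE 0.15) and 0.15 on its second (SE 0.13).

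F12 came nearest to the threshold. It read -0.16, -0.25, -0.14 and -0.32 in MycF/F,ERT2-Cre livers fed Wy-14643 and -0.55, -0.64 and -0.63 in MycF/F livers fed Wy-14643. The genotypes did not overlap, at a difference of 0.38 (SE 0.07, adjusted p = 0.0917), and without the filter on dim probes the adjusted p was 0.0492. The adjusted p over its settings ran from 0.0492 to 1.

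Serpinc1 differed most, reading 0.32, 0.09, 0.00 and -0.07 in MycF/F,ERT2-Cre livers fed Wy-14643 and -0.39, -0.35 and -0.22 in MycF/F livers fed Wy-14643. The ranges were apart, by 0.41 (SE 0.11, adjusted p = 0.208), and its second probe differed by 0.35 (SE 0.10, adjusted p = 0.312). F2 differed by 0.40 (SE 0.11), Proc by 0.34 (SE 0.09), F5 by 0.31 (SE 0.10), F7 by 0.29 (SE 0.15), F11 by 0.27 (SE 0.11), F9 by 0.25 (SE 0.20, 1 array each), Klkb1 by 0.24 (SE 0.11) and F10 by 0.18 (SE 0.10). Of the 5 members with all arrays, F7 was the only one whose 2 genotypes overlapped on the drug, while every array of MycF/F,ERT2-Cre lay above every array of MycF/F for 7.25% of all genes.

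Within each slide the sign was the same, for 6 of 6 members on slide 1, 8 of 8 on slide 2 and 8 of 8 on slide 3. The share of all genes with that sign was not computed within slides, and the members' values move together. The medians were 0.46, 0.35 and 0.23. The single values spread more widely than the means, with Serpinc1 at 0.71 on slide 1, 0.44 on slide 2 and 0.19 on slide 3, while F12 stayed between 0.38 and 0.40.

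**Figure D3:**
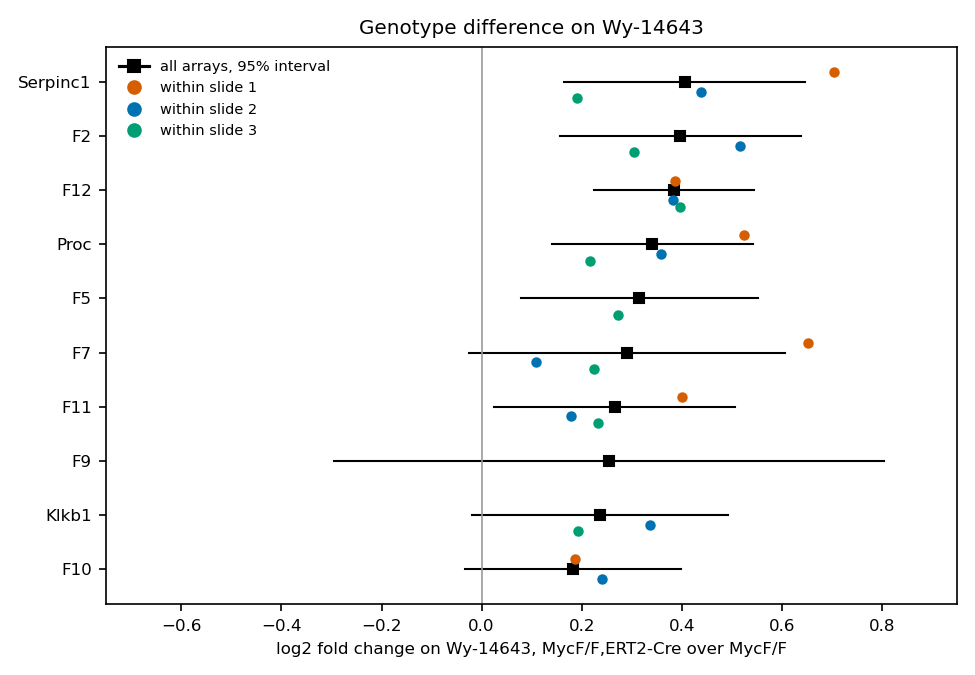
Log2 fold change of MycF/F,ERT2-Cre over MycF/F livers, both fed Wy-14643, for each member (squares, all arrays, with the 95% interval) and within each slide (coloured circles, no test). All squares lie between 0.18 and 0.41, and every within-slide circle lies above 0, from 0.11 for F7 on slide 2 to 0.71 for Serpinc1 on slide 1.

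On control diet the genotypes could be compared for 8 members, with 4 MycF/F,ERT2-Cre arrays against the lone MycF/F array, and none passed, as for all genes (0% of 24898, with 447 or 1.80% at an unadjusted p under 0.05). Estimates ran from -0.16 for F7 to 0.41 for Serpinc1, and 7 of 8 were above 0, against 43.5% of all genes. F12 read 0.14, 0.18, 0.22 and 0.19 in MycF/F,ERT2-Cre livers and -0.10 in the MycF/F liver sample, and Serpinc1 0.83, 0.58, 0.84 and 0.57 against 0.29. Both lone values lay below all 4 arrays, with differences of 0.28 (SE 0.11) and 0.41 (SE 0.16) and an adjusted p of 1.00 each.

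The other genes of clotting were read from lists by role, each gene on its brightest probe alone. The comparison is again that of the diets in MycF/F,ERT2-Cre livers, where 7.26% of all genes were called lower and 9.12% higher. Of 7 other clotting factors measured, 4 fell and 1 rose. Kng1, one of the mouse genes for kininogen, the cofactor that carries prekallikrein and F11, fell by 1.24 (SE 0.13) and Kng2 by 0.69 (SE 0.16). F13b, the carrier subunit of the fibrin crosslinker, fell by 0.72 (SE 0.09), and Proz, the vitamin K-dependent cofactor of the F10 inhibitor Serpina10, fell by 0.87 (SE 0.14). F3, tissue factor, the receptor of F7, rose by 0.45 (SE 0.11, adjusted p = 0.0156). F8 and Vwf, made by endothelium, read -0.05 (SE 0.13) and -0.04 (SE 0.07), and F13a1 was well above background on 0 of 12 arrays.

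F3 and F7, receptor and ligand of the extrinsic route, were called in opposite directions. F3 read -0.15, -0.13, -0.36 and -0.05 on Wy-14643 and -0.80, -0.38, -0.47 and -0.82 on control diet in MycF/F,ERT2-Cre livers. The lowest drug array and the highest control array were close, at -0.36 and -0.38. In MycF/F livers F3 differed by 0.33 (SE 0.18, adjusted p = 0.404).

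Among 8 inhibitors and receptors, 4 fell in MycF/F,ERT2-Cre livers and none rose. Serpind1 (heparin cofactor II) fell by 1.00 (SE 0.08), Serping1, the inhibitor of active F12 and kallikrein, by 0.57 (SE 0.14), Serpina10 by 0.55 (SE 0.16) and Pros1, the cofactor of activated protein C, by 0.39 (SE 0.07). The receptors Thbd and Procr, on which endothelium activates protein C, read 0.13 (SE 0.15) and 0.02 (SE 0.12), and Tfpi, the inhibitor of F7 with tissue factor, read -0.01 (SE 0.11).

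Of 11 genes of the vitamin K cycle, propeptide cleavage and export, 4 fell. They were Vkorc1, the reductase that regenerates vitamin K and the target of warfarin, by 0.61 (SE 0.07), Lman1, the export receptor of F5 and F8, by 0.92 (SE 0.16), the sulfotransferase Tpst1 by 0.73 (SE 0.13) and the hydroxylase Asph by 0.41 (SE 0.10). Ggcx, the vitamin K-dependent carboxylase itself, read -0.18 (SE 0.15, adjusted p = 0.515). Of 4 other liver proteases, Hgfac fell by 1.66 (SE 0.10) and Tmprss6 by 0.46 (SE 0.10), while Hpn and Habp2 read -0.11 (SE 0.07) and -0.23 (SE 0.16).

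Of 17 hepatocyte transcription factor genes, 5 fell and 2 rose, with a median of 0.04. Hnf4a read 0.04 (SE 0.19, adjusted p = 0.927) on the brightest of its 3 probes. Cebpa, Rxra and Esr1 had 2 probes each, of which the brightest is given. Cebpa fell by 0.65 (SE 0.19), Onecut1 by 0.94 (SE 0.17), Nr1h4, the bile acid receptor, by 0.61 (SE 0.11), Rxra, the partner of PPARα, by 0.36 (SE 0.09) and Esr1, the estrogen receptor, by 1.43 (SE 0.14). Nr1i3, the receptor CAR, rose by 0.72 (SE 0.10) and Creb3l3, a membrane-bound factor of the fasting liver, by 0.73 (SE 0.13). The part of these genes in the members' values was not tested. For MycF/F livers, against the lone control array, only the median log2 fold change of each list is given. It was -0.69 over 7 other factors, -0.38 over 8 inhibitors and receptors and -0.27 over 11 vitamin K and export genes. The 4 proteases had a median of -0.37 and the 17 transcription factors -0.13, with -0.004 over all genes.

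**Figure D4:**
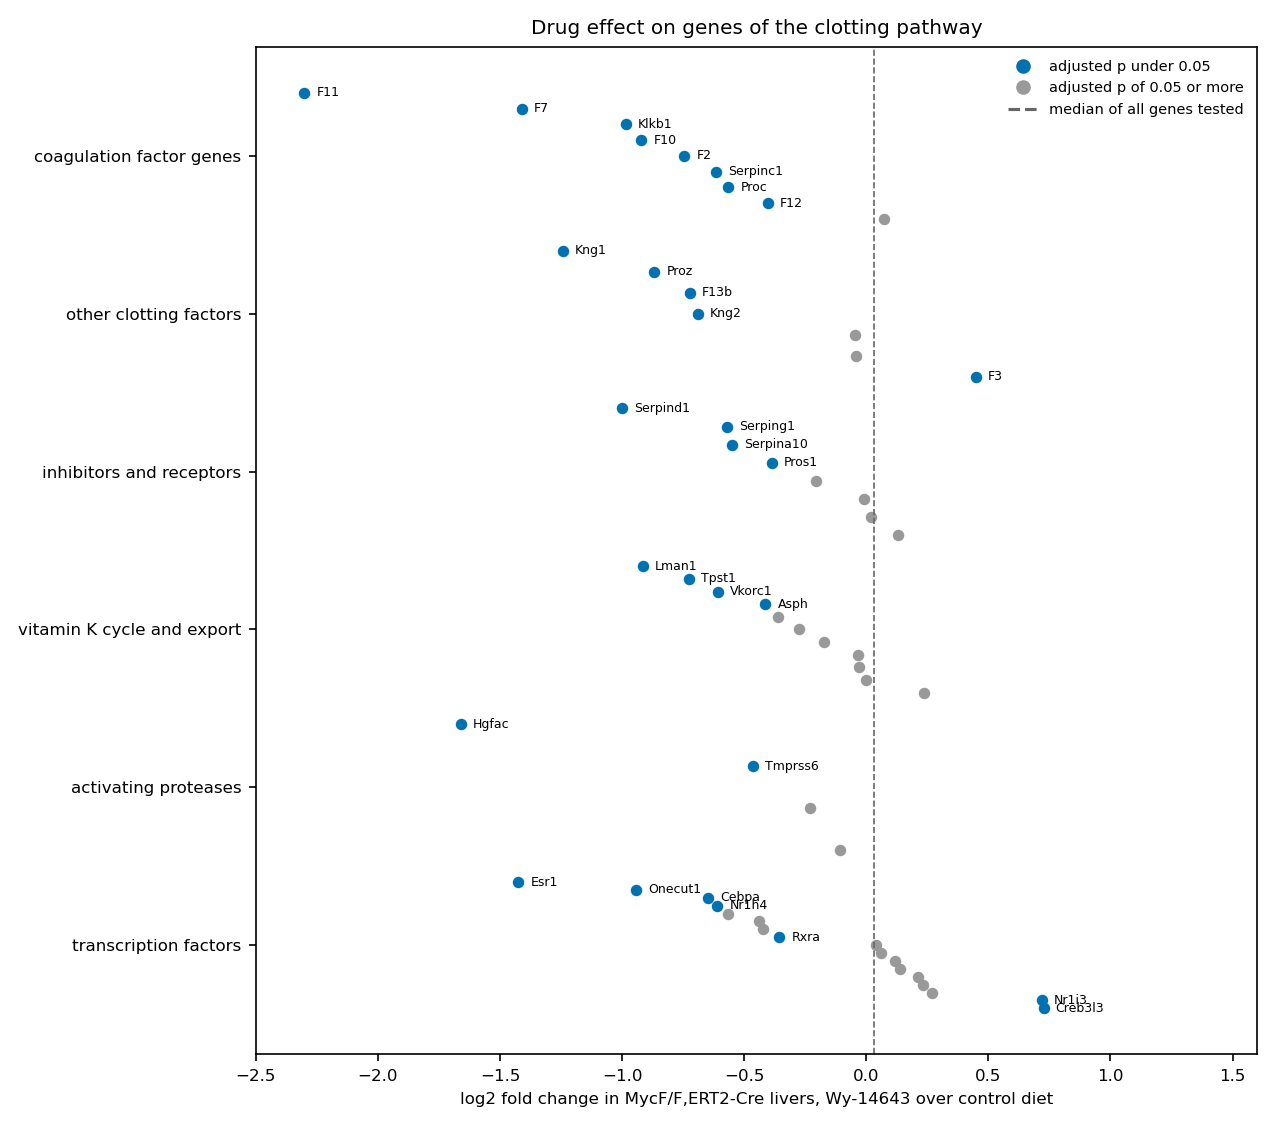
Log2 fold change of Wy-14643 over control diet in MycF/F,ERT2-Cre livers for the members (top) and 5 lists of pathway genes, 1 point per gene, in blue with its symbol where the adjusted p is under 0.05 and in grey otherwise, with the median of all genes as a dashed line. All 8 named members lie to the left of 0, whereas F3, Nr1i3 and Creb3l3 lie to the right.

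Markers of liver cell types were read in the same comparison, in which 7.26% of all genes were called lower and 9.12% higher. Of 8 hepatocyte markers measured, 4 fell in MycF/F,ERT2-Cre livers fed Wy-14643, with Alb, serum albumin, at -1.31 (SE 0.12) and Ttr, transthyretin, at -1.29 (SE 0.21). Fabp1, a known PPARα target, rose by 1.69 (SE 0.22). The 3 hepatocyte markers read on all arrays were Alb, Apoa1 and Apoh. Their mean log2 ratio ran from -0.07 to 0.57 on Wy-14643 and from 0.97 to 1.14 on control diet. Of 9 Kupffer cell markers 6 fell, of 10 endothelial markers 2, of 10 stellate cell markers 5, of 5 platelet markers 1, and of 9 lymphocyte, neutrophil and erythroid markers 4. Of 7 cholangiocyte markers 1 rose and 1 fell. The mean of the 4 Kupffer markers on all arrays ran from -0.35 to -0.10 on Wy-14643 and from -0.09 to 0.80 on control diet. Of the markers with a probe, Ppbp was well above background on 1 array and Gp9 on 3. On Wy-14643 all 9 Kupffer markers read higher in MycF/F,ERT2-Cre than in MycF/F livers, against 56.7% of all genes. Their differences ran from 0.01 to 0.58 with a median of 0.42, and none passed. The 7 hepatocyte markers that could be tested there ran from -0.59 for Alb to 0.53 for Apoh, with a median of 0.03. The medians of the other marker lists ran from -0.08 for platelets to 0.15 for endothelium, and no marker of any list passed. In whole liver, fewer cells of a type and less RNA per cell cannot be told apart, and the part of these markers in the members' values was not tested.

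The 5 members read on all 12 arrays, F7, F11, F12, Proc and Serpinc1, followed each other across arrays. Pearson's r between 2 of them ran from 0.85 to 0.98, with a median of 0.92 over 10 pairs. These arrays differ in diet and share the reference RNA. F7 and F11 were the closest pair (r = 0.98), followed by F12 and Proc (r = 0.96). The mean of their centred log2 ratios was -0.23, -0.33, -0.38 and -0.44 in MycF/F,ERT2-Cre livers fed Wy-14643 and 0.68, 0.68, 0.71 and 0.80 on control diet. In MycF/F livers it was -0.76, -0.62 and -0.66 on Wy-14643 and 0.55 on control diet. The order of the 4 groups was thus MycF/F on Wy-14643 lowest, MycF/F,ERT2-Cre on Wy-14643 next and the control arrays highest.

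Among 11640 named genes read on all 12 arrays, the 5 whose values were most like that mean were Gpld1, a phospholipase secreted by hepatocytes (r = 0.996), Masp1, a protease of the lectin pathway of complement (r = 0.994), C2, a complement component (r = 0.991), Gnmt, the glycine methyltransferase of hepatocytes (r = 0.990), and 1300017J02Rik (r = 0.990). Of the 11640 genes, 315 had an r over 0.9 with that mean and 395 an r under -0.9, over arrays that differ in diet. Over the 7 Wy-14643 arrays alone the r of the 5 genes ran from 0.917 for Masp1 to 0.997 for Gpld1. Their drug effects in MycF/F,ERT2-Cre livers ran from -1.89 for Gnmt to -0.96 for 1300017J02Rik.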

How the data were processed

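RNA of whole liver was read on 12 Agilent 2-colour arrays. Per the file headers, the authors extracted the spots with Agilent Feature Extraction 11.0.1.1, and the deposited intensity of each spot and of its local background was the start here. The log10 ratio deposited by the authors served as an alternative. Values were corrected with normexp (offset 50) and loess-normalized within each array in limma 3.58.1 under R 4.3.3. Control spots and spots marked as outliers were left out. Probes with Cy5 well above background on at least 3 arrays were kept (31861 of 41174), and each gene took its brightest probe. Symbols came from RefSeq accessions through a GRCm38.p6 gene table, which matched 16792 of 17440. The array design names another build, so no gene coordinates are given apart from the RefSeq promoters.

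Group means were estimated over the 12 arrays with lmFit and eBayes (8 residual degrees of freedom), with two-sided tests and Benjamini-Hochberg adjustment over all genes of a comparison, 5 comparisons in all. Fits were tested on simulated data for the drug effect in MycF/F,ERT2-Cre livers only, with independent noise, no slide effect and no missing readings. That setting does not cover the comparisons with the lone control array. The number of arrays limits the precision, and a group left with 1 reading is assumed to vary like the others. The members, gene lists and the rule for named genes (members, pathway lists, Cyp4a14, Alb, Ttr, Myc and the 5 genes most like the members' mean) were chosen with earlier results of these data known. Markers named beyond these (Fabp1, Apoa1, Apoh, Ppbp, Gp9) were chosen after their values were seen. Results for some genes of these lists are not reported here. Alternatives changed the background, ratio, channel, filter, outlier spots, blocks, probe rule, prior, arrays fitted and replicates.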

Additional observations from a re-analysis of the deposited data

How the results depend on the processing

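The count of members called lower stayed between 7 and 9 in MycF/F,ERT2-Cre livers under every alternative except Cy5 alone, where it was 2, and between 6 and 9 in MycF/F livers except with Cy5 alone, where it was 1, and with the replicate block, where it was 5 of 7 members that could be fitted. Cy5 alone also moved the median of all genes in MycF/F livers to -0.11, against -0.00. Without the filter on dim probes, 1 member (F12) was called in the genotype comparison on Wy-14643, against 0. Over all genes that comparison called 26, and from 0 to 110 by setting (110 without slide 1). Leaving out each replicate gave 8 members in MycF/F,ERT2-Cre livers each time and 7 to 8 in MycF/F livers. Both comparisons of genotype and of drug effects otherwise stayed at 0. No member's called value changed sign. The labels do not say that replicate numbers pair the samples, and the numbers were not taken as pairing, because that would need every same-numbered pair to correlate over 0.1 and 7 of 10 did (mean 0.17, from -0.07 to 0.41, against -0.05 for other pairs). Every compared pair of arrays on the same slide correlated above 0, from 0.08 to 0.41. Pairs within a group and pairs with the lone MycF/F control array were not compared. The replicate block gave 8 members in MycF/F,ERT2-Cre livers and 5 in MycF/F livers and 0 in the other comparisons. Signal over background was lowest for F11, down to 4.06, and at least 21.2 for the other members. The causes of these changes were not tested.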
